A study of Mus musculus with 12 samples.

Results

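Krt20 encodes keratin 20, an intermediate filament protein of simple epithelia. The kidneys of male mice aged 8 to 12 weeks that lacked Krt20 in renal proximal tubular cells (KRT20-cKO, here cKO) were compared with wild type kidneys (WT) after ischemia/reperfusion (IR). For IR the blood flow of each kidney was stopped by a clamp for 30 min, and tissue was collected 24 h after its release. The comparison used 6 of the 12 RNA-seq libraries, namely 3 of cKO IR and 3 of WT IR, chosen by genotype and surgery from the sample titles. It was also made with 5 libraries, without WT IR 2, because that library lay between the sham kidneys and the other injured kidneys. The other 6 libraries, 3 of WT sham and 3 of cKO sham, came from mice operated on without clamping, with no time to collection given, and were used here for the shared estimate of spread and for the test of whether the genotype difference depended on surgery. The labels name neither the Cre driver of the knockout nor the animal behind each library, so each p-value here is set against the scatter among these libraries, which may be partly technical.

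The proximal tubule reabsorbs most of the filtered solutes, depends on mitochondrial and peroxisomal oxidation of fatty acids, and is the segment most exposed to ischemia. After IR, surviving tubular cells lower the transporters of their mature state, switch on injury genes such as Havcr1 and Lcn2, produce keratins, and begin to divide. In whole-kidney RNA every cell type contributes, so fewer cells of a type and less RNA per cell cannot be told apart, and cells outside the proximal tubule could still make Krt20.

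The libraries held 13187531 to 15962303 reads recovered from the deposited FPKM (fragments per kilobase of gene model, scaled to the size of the library). On the component that explained 67.4% of the variance, WT IR 2 scored 9.8, the other WT IR libraries 34.9 and 42.1, the cKO IR libraries 45.5 to 49.1, and the sham libraries -39.2 to -36.7. Mitochondrial genes took 7.29% to 10.4% of the reads. The extraction text speaks of retinas while the tissue field gives kidney. Of 10 retinal genes 1, Pde6a, was abundant enough to test, and it stood at 2.19 to 5.36 FPKM in the sham libraries and at most 0.351 FPKM in the injured ones, while Rcvrn, Crx and Nrl were at 0. The kidney phosphate carrier Slc34a1 was at 108 FPKM or more in every injured library.

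Krt20 itself stood at 84.0, 64.9 and 59.9 FPKM in the WT IR libraries and at 28.2, 35.6 and 47.0 FPKM in the cKO IR libraries. All 3 cKO values lay below all 3 WT values, and no sham library of either genotype was above 0.157 FPKM. The group means were 69.6 ± 12.7 and 36.9 ± 9.47 FPKM (SD, n = 3 libraries each), a ratio of 0.531, so the injured knockout kidney still held a large part of the wild type level. On the log2(FPKM + 1) scale used for every difference here, Krt20 was lower by -0.91 (SE 0.17, limma adjusted p = 0.132), and by -0.95 without WT IR 2. An exact two-sided permutation test over the 6 libraries gave p = 0.1, the smallest value that 3 against 3 allows. Prdx2, the peroxiredoxin named in the title of the study, read 41.2, 46.6 and 39.2 FPKM in WT IR against 49.1, 46.1 and 41.9 FPKM in cKO IR. These groups overlapped (difference 0.11, SE 0.08, limma adjusted p = 0.59, exact permutation p = 0.3).

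Across the 12868 genes whose mean reached 1 FPKM, of 56748 in the table, limma called none between cKO IR and WT IR at a Benjamini-Hochberg adjusted p under 0.05. The smallest adjusted p was 0.0513, for Pdp2. At an unadjusted p under 0.05, called the nominal threshold from here on, 1251 genes were higher in cKO IR (9.72% of those tested) and 675 were lower (5.25%). Without WT IR 2 limma again called none (smallest adjusted p 0.241), and the nominal counts were 1002 higher (7.79%) and 541 lower (4.2%). These shares over all tested genes are the background for the list counts below, also where they are not repeated. All these counts rest on a spread estimated over the 4 groups, sham libraries included. With only the IR libraries fitted, 669 genes were higher and 408 lower at the nominal threshold. The lists were not counted in that fit. In both fits 705 higher and 369 lower genes passed the nominal threshold. The fits shared every library other than WT IR 2, which was singled out from its values in these data. The second fit is therefore not an independent reading, and much of the overlap is built in. Of the genes past the nominal threshold with all libraries, 38 were at least 2-fold higher and 38 at least 2-fold lower on the log2(FPKM + 1) scale. The library groups did not overlap for 1310 higher genes (10.2%) and 752 lower genes (5.84%), which became 15.1% and 9.66% when WT IR 2 was left out and only 2 WT libraries had to be cleared.

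The excess of higher genes depended on the scaling. As deposited, 65% of the genes past the nominal threshold were higher in cKO IR (1251 against 675). With every library scaled to the same total of recovered reads the share was 39.2% (692 against 1073), and with libraries centred on their median gene it was 49.4% (896 against 918). The lower count also rested on WT IR 3, without which it was 1069. Limma voom on the recovered reads called 1 gene, Pdp2 (adjusted p = 0.0145).

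**Figure D1:**
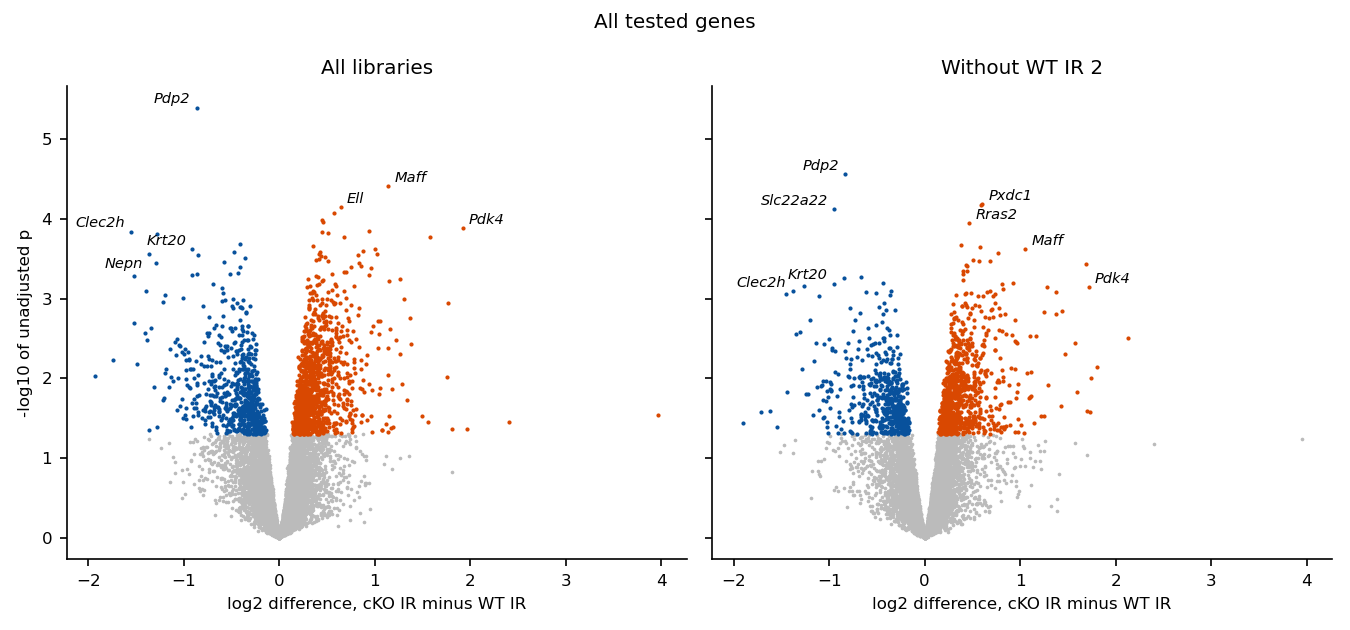
Difference between cKO IR and WT IR (horizontal, log2 scale) against the negative log10 of the unadjusted limma p (vertical) for the 12868 tested genes, with all libraries on the left and without WT IR 2 on the right. Coloured points have an unadjusted p under 0.05 (orange higher in cKO IR, blue lower): 1251 and 675 genes on the left, 1002 and 541 on the right. Pdp2 stands highest in both panels.

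Pdp2 was the gene with the smallest p. It encodes a phosphatase of the mitochondrial matrix that removes inhibitory phosphate from pyruvate dehydrogenase, the enzyme that feeds pyruvate into the citric acid cycle. Its level was 7.93, 9.16 and 9.15 FPKM in WT IR against 5.22, 3.97 and 3.94 FPKM in cKO IR, against 11.7 to 13.1 FPKM in WT sham and 14.3 to 15.8 FPKM in cKO sham. Every cKO IR library was below every WT IR library, a difference of -0.86 (SE 0.10) with all libraries and -0.83 without WT IR 2. The adjusted p ranged from 0.00955 to 0.592 over the alternatives tried, and was under 0.05 in 7 of them. Pdk4, a kinase that puts that phosphate on, was in the opposite direction. It read 6.18, 6.16 and 15.3 FPKM in WT IR against 31.0, 25.1 and 53.1 FPKM in cKO IR, a difference of 1.92 (SE 0.33, limma adjusted p = 0.132) and of 1.72 without WT IR 2. In the sham kidneys the order was reversed, with 17.6 to 24.0 FPKM in WT against 3.24 to 4.23 FPKM in cKO. The other members of this small family of kinases and phosphatases, looked up after Pdp2 and Pdk4 had been seen, were Pdk1 (-0.38, groups not overlapping), Pdk2 (-0.51), Pdk3 (-0.35) and Pdp1 (0.13). Of these 4 genes Pdk1 alone passed the nominal threshold (limma adjusted p = 0.17).

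Maff, a small MAF transcription factor, had the smallest p among the higher genes. It read 6.23, 3.68 and 3.40 FPKM in WT IR against 11.3, 11.3 and 9.63 FPKM in cKO IR (difference 1.14, SE 0.17, limma adjusted p = 0.132), and at most 1.17 FPKM in any sham library. Ell, a transcription elongation factor, went from 8.72, 6.65 and 7.23 FPKM in WT IR to 12.7, 12.2 and 11.9 FPKM in cKO IR (0.64). Bcl2l1, which encodes the anti-apoptotic protein BCL-XL, had 42.4, 33.2 and 35.0 FPKM against 58.5, 55.4 and 51.6 FPKM (0.58). For all 3 genes the cKO IR libraries were close to each other and clear of the WT IR libraries. Plin2 coats lipid droplets. It had 116, 77.3 and 119 FPKM in WT IR against 389, 179 and 414 FPKM in cKO IR, a difference of 1.57 (SE 0.28, limma adjusted p = 0.132). In Tubb2a, a beta tubulin, the values were 68.9, 57.3 and 50.2 FPKM against 136, 101 and 104 FPKM (0.94). Both were far lower in the sham kidneys of either genotype, at 11.8 to 17.9 FPKM for Tubb2a and 26.0 to 30.2 FPKM for Plin2. The other higher genes among the 10 with the smallest p were Tmcc3 (0.45), Lrrfip2 (0.45), Als2cl (0.51) and Slc48a1 (0.45), a heme transporter.

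The lower genes with the smallest p came from varied functions. Casr, the calcium-sensing receptor of the thick ascending limb, read 5.97, 9.73 and 6.72 FPKM in WT IR against 2.85, 4.15 and 3.95 FPKM in cKO IR (-0.85, SE 0.16, limma adjusted p = 0.132), and 14.7 to 18.7 FPKM in the sham kidneys. Clec2h, a C-type lectin, had 7.38, 8.36 and 4.25 FPKM against 1.09, 2.34 and 1.36 FPKM (-1.55). Nepn had 4.12, 6.31 and 2.66 FPKM against 1.60, 1.10 and 0.486 FPKM (-1.36). For these 3 genes no cKO IR library reached the lowest WT IR library, and every injured library was below every sham library. Prps2, which makes the ribose donor of nucleotide synthesis, was at -0.41. Evc, a protein of the cilium base, was at -0.48, Tfdp2, the partner of E2F factors, at -0.36, and Rab3il1 at -0.58. The small nucleolar RNA Snord91a (-1.29) has a gene model shorter than a usual library fragment, which makes its FPKM uncertain.

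**Figure D2:**
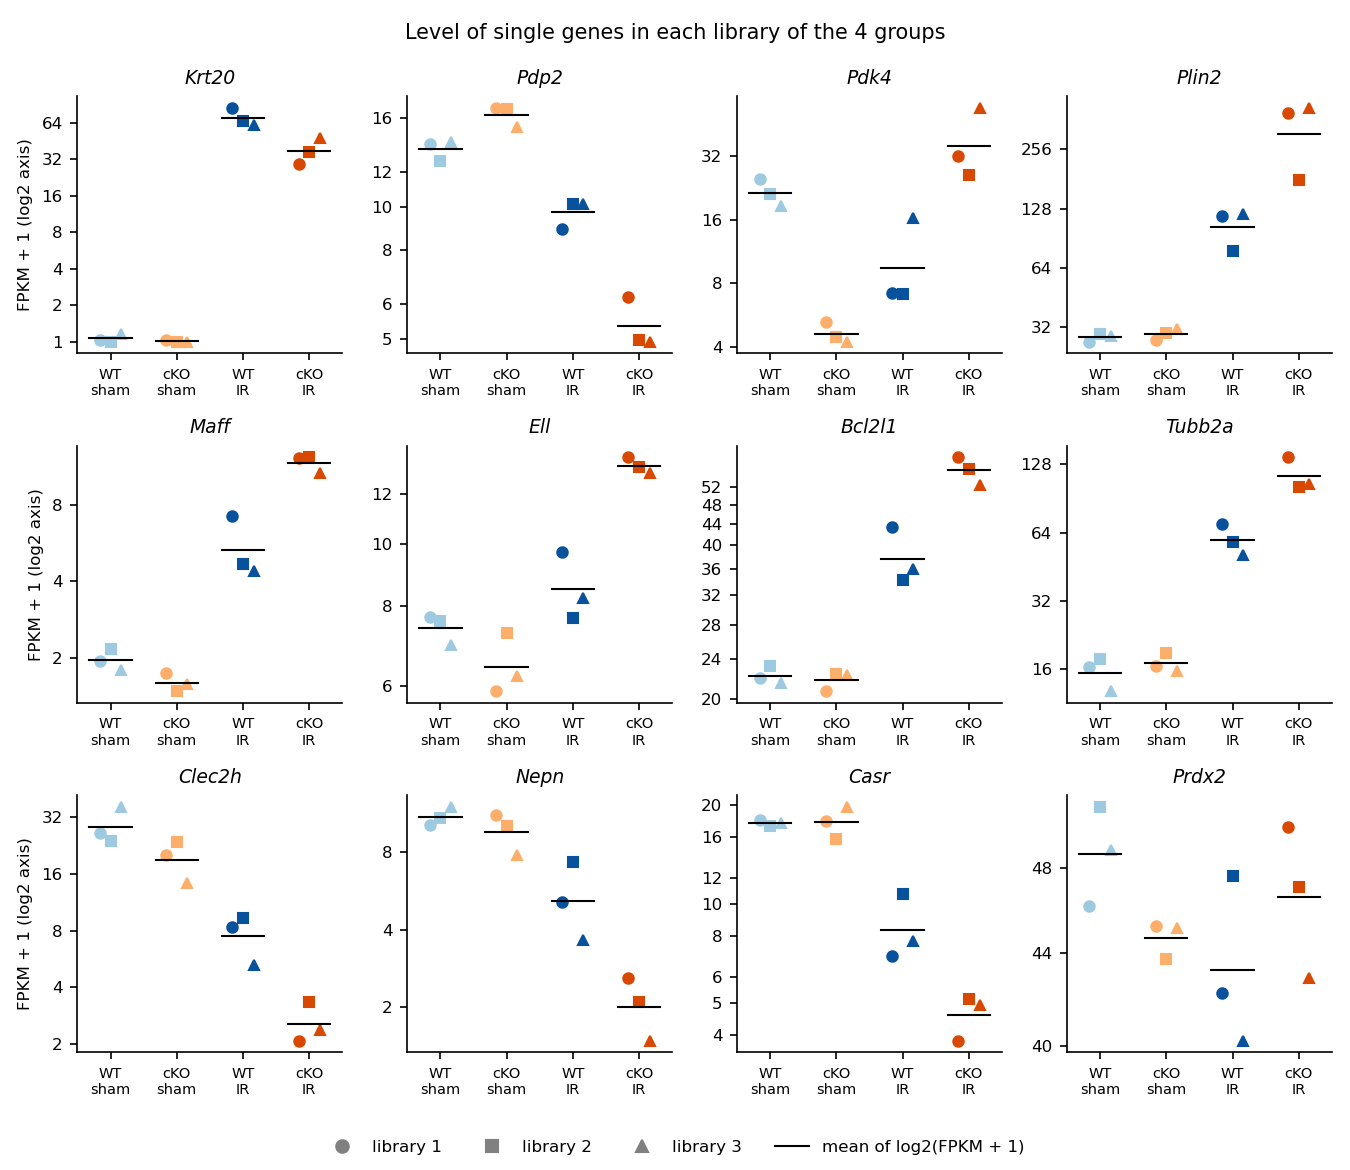
FPKM + 1 (log2 axis) of 12 genes in each of the 12 libraries, by group, with symbols for library 1, 2 and 3 and a bar at the mean of log2(FPKM + 1). The cKO IR libraries lie apart from the WT IR libraries for all genes shown other than Prdx2, where they overlap, and Pdk4 lies in the opposite order in the sham kidneys.

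Leaving out WT IR 2 changed which genes led. Pdp2, Clec2h, Krt20, Casr and Rab3il1 stayed among the 10 lower genes with the smallest p, and Maff, Ell, Bcl2l1 and Als2cl among the 10 higher ones. New on the higher side were Oaf (0.38), Nbl1 (0.68), which encodes a secreted BMP antagonist, Bmp4 itself (0.77), the small GTPase gene Rras2 (0.47), Pxdc1 (0.60) and Mlxipl (0.58), the glucose-responsive transcription factor ChREBP. Rras2 showed what the left-out library did: WT IR 2 was at 17.9 FPKM, the other WT IR libraries at 27.9 and 28.8 FPKM, and the cKO IR libraries at 38.5, 39.6 and 40.8 FPKM. For Bmp4 it was the other way round, with 14.9 FPKM in WT IR 2, 10.6 and 7.61 FPKM in the other WT IR libraries and 17.8, 15.9 and 14.5 FPKM in cKO IR. New on the lower side were Slc22a22 (-0.95) and Slc34a3 (-0.84), an anion carrier and a sodium-phosphate carrier of the proximal tubule, Scn4b (-0.51), Rbl1 (-0.44), a pocket protein related to RB, and Ptpn6 (-0.35). Slc34a3 read 4.99, 10.5 and 3.94 FPKM in WT IR against 1.96, 2.52 and 1.67 FPKM in cKO IR. The limma adjusted p of these genes without WT IR 2 was at least 0.241.

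NRF2 is the transcription factor that switches on antioxidant and detoxifying enzymes when its repressor KEAP1 is oxidised. Of 23 tested NRF2 targets (25 listed) 13 were higher at the nominal threshold and none lower, with a median difference of 0.36, beside 9.72% and 5.25% and a median of 0.029 over all tested genes. The counts were again 13 and 0 without WT IR 2, with a median of 0.34. Leaving out any other injured library gave 11 to 14 higher, and scaling to the same total of reads gave 11. Hmox1, the heme-degrading enzyme, read 79.9, 48.2 and 123 FPKM in WT IR against 187, 123 and 269 FPKM in cKO IR (1.22, SE 0.32, limma adjusted p = 0.175). Txnrd1, a thioredoxin reductase, had 61.3, 48.0 and 61.4 FPKM against 97.6, 76.0 and 118 FPKM (0.75). Srxn1, which repairs overoxidised peroxiredoxins, had 97.7, 57.0 and 117 FPKM against 210, 127 and 212 FPKM (1.03). In 11 of the 23, Txnrd1 and Srxn1 among them, no cKO IR library fell within the WT IR range. For Hmox1 the highest WT IR library and the lowest cKO IR library were equal at the rounding shown. The pentose phosphate enzymes, which supply NADPH, were represented by G6pdx (0.50), Pgd (0.61) and Taldo1 (0.46), and the glutathione-making enzyme by its subunit gene Gclm (0.32). Nqo1 was at 0.59, Cbr3 at 1.16, Ugdh at 0.60 and Mafg at 0.28. Nfe2l2, which encodes NRF2, read 30.7, 30.6 and 37.7 FPKM in WT IR against 44.8, 38.8 and 42.1 FPKM in cKO IR (0.34).

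The antioxidant response element to which NRF2 and small MAF proteins bind was searched as TGACNNNGC on both strands of the 250 bases before each gene's start (RefSeq promoters, build GRCm38.p6, matched by symbol). It was present in 6 of the 21 listed NRF2 targets with a promoter in the table (28.6%) and in 3112 of all 27025 genes (11.5%). Hmox1, Srxn1, Cbr3, Nqo1, Pgd and Taldo1, also named above, were not among the 6. The stretches around the element are shown for 5 of the targets above because they carry the letters searched. They are written 5′ to 3′ on the gene's strand, with the match, or its reverse complement where it lay on the other strand, in capitals.
Gclm, chr3:122245398-122245456, plus strand: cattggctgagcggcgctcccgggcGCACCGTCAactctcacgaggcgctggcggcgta
Txnrd1, chr10:82859089-82859147, plus strand: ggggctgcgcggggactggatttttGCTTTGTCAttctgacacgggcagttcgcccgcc
G6pdx, chrX:74428904-74428962, minus strand: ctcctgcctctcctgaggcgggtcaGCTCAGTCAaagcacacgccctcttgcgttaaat
Ugdh, chr5:65435903-65435999, minus strand: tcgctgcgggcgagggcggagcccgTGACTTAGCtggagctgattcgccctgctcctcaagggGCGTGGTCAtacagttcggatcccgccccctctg
Mafg, chr11:120633736-120633794, minus strand: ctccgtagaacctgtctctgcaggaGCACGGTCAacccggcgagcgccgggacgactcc
Ugdh held 2 matches, 132 and 94 bases before the start, and each of the others 1, at 134 (Gclm), 92 (Txnrd1), 57 (G6pdx) and 222 bases (Mafg). A match is a description of the letters, with no binding measured here.

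Ferroptosis is a form of cell death driven by oxidised membrane lipids and iron, and the study's title concerns it. Among 20 tested suppressors 5 were higher and 1 lower at the nominal threshold (median 0.14), beside 9.72% and 5.25% of all tested genes. Among 20 tested drivers and markers 2 were higher and 2 lower (median 0.01), the former near the share over all tested genes. Gpx4, the peroxidase that reduces lipid peroxides, had overlapping groups and a difference of 0.03, whose sign changed with the scaling. The suppressors past the threshold were Gsr (0.54), glutathione reductase, Nqo1 (0.59), Gclm (0.32), Nfe2l2 (0.34) and the ferritin light chain Ftl1, which read 1192, 1083 and 1087 FPKM in WT IR against 1677, 1404 and 1286 FPKM in cKO IR (0.37). Nqo1, Gclm and Nfe2l2 were counted above, so they are not a separate observation. The lower gene of the suppressor list was Dhcr7 (-0.39), which converts 7-dehydrocholesterol to cholesterol. As 7-dehydrocholesterol protects membranes from peroxidation, this enzyme does not act as the list's name says. On the driver side Acsl4, which prepares polyunsaturated fatty acids for membrane lipids, read 25.3, 16.6 and 24.3 FPKM in WT IR against 31.7, 27.5 and 38.4 FPKM in cKO IR (0.55), and Hmox1 is described above. The lower ones were the iron carrier Slc11a2 (-0.28) and the peptidase Dpp4 (-0.37). Among 19 peroxiredoxins and other antioxidant enzymes 3 were higher and none lower (median 0.11), beside 9.72% and 5.25% of all tested genes. The 3 were Srxn1 and Txnrd1, both counted above as NRF2 targets, and the glutaredoxin gene Glrx (0.58). The higher count was 5 without WT IR 2. It was 2 with libraries scaled to the same total of reads, without WT IR 1 or without cKO IR 1. Of 23 tested genes of exosome formation and release 10 were higher and none lower (median 0.18), but 3 were with libraries scaled to the same total of reads, 5 without cKO IR 1 or without cKO IR 2, and 6 without WT IR 2. Arf6, a small GTPase of endosomal traffic, had 53.1, 38.5 and 48.1 FPKM against 69.1, 68.5 and 62.3 FPKM (0.52), and the syndecan gene Sdc4 159, 159 and 123 FPKM against 185, 215 and 187 FPKM (0.42). Flot2 (0.25), Pdcd6ip (0.23), which encodes ALIX, and Chmp4b (0.27) were smaller.

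Markers of tubular injury were on the higher side with all libraries, where 21 of 21 tested genes had a positive difference and the median was 0.48. Of the 21, 9 passed the nominal threshold, beside 9.72% of all tested genes. Without WT IR 2, the library with the lowest injury levels, 15 of 21 had a positive difference, 6 were higher and 1, Clu, lower (-0.38) with a median of 0.33, and without WT IR 3 there were 13. Havcr1, which encodes the urinary marker KIM-1, read 782, 485 and 797 FPKM in WT IR against 1163, 982 and 1159 FPKM in cKO IR (0.71, SE 0.22, limma adjusted p = 0.202). Lcn2, which encodes NGAL, had 83.7, 48.6 and 77.6 FPKM against 122, 109 and 215 FPKM (1.05). The lowest cKO IR library was above the highest WT IR library for both. Spp1, osteopontin, had 9471, 5509 and 9027 FPKM against 12076, 11124 and 12459 FPKM (0.61). Tnfrsf12a, the receptor of the cytokine TWEAK, was at 0.94, and Gdf15, a secreted stress cytokine, at 0.90.

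Immediate early and stress transcription factors were higher in 10 of 20 tested genes and lower in none (median 0.62), beside 9.72% and 5.25% of all tested genes. The higher count was 5 without WT IR 2 (median 0.40) and 6 without cKO IR 2. Cebpb, a mediator of acute phase transcription, had 25.1, 15.1 and 19.2 FPKM in WT IR against 40.1, 35.5 and 40.5 FPKM in cKO IR (0.96, SE 0.19, limma adjusted p = 0.135). Cebpd was at 0.91, Fosl2 at 0.68, Jund at 0.42 and Myc, which drives growth, at 0.76. The fibrinogen chains, which form clots and are also made in injured tubule, gave 243, 155 and 131 FPKM of Fga in WT IR and 378, 243 and 466 FPKM in cKO IR (1.04, SE 0.29, limma adjusted p = 0.178), with Fgb at 1.38 and Fgg at 0.89. Haptoglobin, Hp, was lower (-1.28), at 0.806, 6.12 and 13.2 FPKM against 1.25, 1.37 and 1.41 FPKM, but WT IR 1 was below all cKO IR libraries. Among plasminogen activation and matrix protease genes 3 of 10 tested were higher and 1, the protease inhibitor gene Timp3 (-0.35), lower (median 0.44), beside 9.72% and 5.25% of all tested genes. Without WT IR 2 the counts were 2 and 0 (median 0.055), and without WT IR 3 there were 5 higher. The higher ones included the urokinase receptor gene Plaur (0.78). Most other tested keratins were on the opposite side to Krt20. Of 6 tested genes of the keratin list, which did not include Krt20, 3 were higher and none lower (median 0.33), beside 9.72% and 5.25% of all tested genes. Without WT IR 2 the higher count was 2 (median 0.19), and 1 when libraries were also scaled to the same total of reads. Krt18 read 28.5, 22.1 and 35.5 FPKM in WT IR against 37.1, 44.6 and 44.2 FPKM in cKO IR (0.55), Krt7 was at 0.47 and Krt8 at 0.32, while Krt10 was at -0.18 with overlapping groups. Of 11 desmosome and cornified envelope genes 4 were higher and 1 lower (median 0.35), beside 9.72% and 5.25% of all tested genes. Without WT IR 2 the counts were 2 and 0 (median 0.18), and without WT IR 1 they were 6 and 0. Those past the threshold included Sprr2g, a cornified envelope precursor, at 1.13, the plaque protein gene Pkp2 at 0.35 and the lower Evpl at -0.49.

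The counts for genes of the mature nephron depended on WT IR 2. Of 36 proximal tubule genes 10 were lower and none higher with all libraries (median -0.35), and 4 were lower and 6 higher without WT IR 2 (median -0.09). Leaving out other libraries gave 5 (without cKO IR 3) to 15 lower (without WT IR 3) and none higher. The 4 lower genes in that reading were Slc5a12, Gatm, Slc5a2 and Dpep1. Slc5a12, a lactate carrier, read 59.6, 60.4 and 60.3 FPKM in WT IR against 32.2, 36.6 and 21.5 FPKM in cKO IR (-1.01, SE 0.22, limma adjusted p = 0.15, and -1.003 without WT IR 2). Gatm, the first enzyme of creatine synthesis, had 61.3, 100.2 and 57.4 FPKM against 39.0, 28.3 and 23.9 FPKM (-1.22, and -0.97 without WT IR 2). The glucose carrier Slc5a2 was at -0.62 and the dipeptidase Dpep1 at -0.72. For these genes every cKO IR library was below every WT IR library. The 6 higher genes without WT IR 2 were the anion carriers Slc22a7 (1.80) and Slc22a12 (0.52), Kap (0.57), an androgen-regulated protein of the proximal tubule, the proteases Napsa (0.74) and Mep1a (0.43), and the fatty acid carrier Slc27a2 (0.38). With all libraries the same 6 genes stood between -0.04 for Mep1a and 0.78 for Slc22a7. Slc22a12 read 267, 450 and 200.4 FPKM in WT IR, the highest in WT IR 2, against 413, 309 and 287 FPKM in cKO IR. The phosphate carrier Slc34a1 was at -1.16 with overlapping groups, at 370, 720 and 248 FPKM against 193, 282 and 108 FPKM. In the thick ascending limb and the distal tubule 2 of 15 genes were lower, Kcnj1 (-0.53) and Klk1 (-0.39), with a median of -0.25 that became 0.10 without WT IR 2. There, Slc12a1, the target of loop diuretics, stood at 17.1, 78.5 and 17.2 FPKM in WT IR against 15.8, 16.1 and 25.0 FPKM in cKO IR, so that its difference of -0.60 was 0.11 without WT IR 2. Egf, made by the same segment, was alike, at 2.65, 18.7 and 1.46 FPKM against 1.83, 2.09 and 2.81 FPKM. All 15 collecting duct genes had a negative difference with all libraries and 4 were past the nominal threshold (median -0.19). Without WT IR 2 11 were negative and 2 past it (median -0.16), and the count was also 2 without WT IR 1 or without cKO IR 1 and 7 without WT IR 3. Hsd11b2, which protects the mineralocorticoid receptor from cortisol-type steroids, had 59.5, 72.8 and 61.9 FPKM against 50.1, 47.3 and 39.5 FPKM (-0.50, and -0.41 without WT IR 2), and the intercalated cell anion exchanger Slc4a1 was at -0.66.

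Fatty acid oxidation and peroxisome genes gave different counts with and without WT IR 2. With all libraries 2 of 24 were higher and 1 lower (median 0.15), and without WT IR 2 13 were higher and none lower (median 0.34), beside 7.79% and 4.2% of all tested genes. Scaled to the same total of reads the 13 became 10. Cpt2, which brings fatty acids into the mitochondrial matrix, showed the pattern, with 73.5 FPKM in WT IR 2, 46.2 and 54.2 FPKM in the other WT IR libraries and 92.5, 58.8 and 82.1 FPKM in cKO IR. Acadl, a long-chain dehydrogenase, had 197 FPKM in WT IR 2, 155 and 136 FPKM in the others and 207, 178 and 193 FPKM in cKO IR, a difference of 0.26 and of 0.40 without WT IR 2. Cpt1a, the entry enzyme, was at 0.28 and 0.33, and Acaa1b, a peroxisomal thiolase, at 0.57 and 0.97. Ppargc1a, a coactivator of mitochondrial genes, was lower (-0.32), and at -0.14 without WT IR 2.

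**Figure D3:**
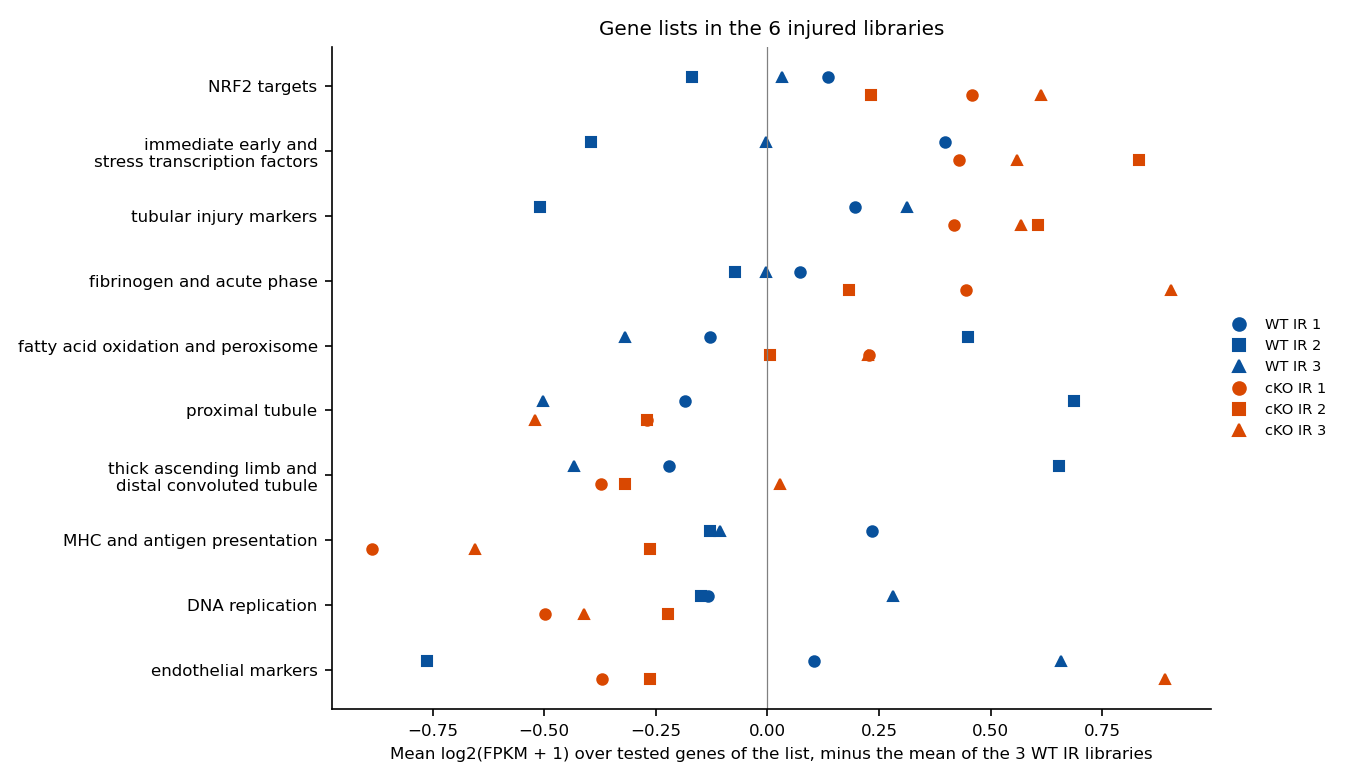
Mean log2(FPKM + 1) over the tested genes of 10 lists in each of the 6 injured libraries, minus the mean of the 3 WT IR libraries (horizontal axis), with WT IR in blue and cKO IR in orange. WT IR 2 (blue square) stands apart at 0.69 for proximal tubule genes and -0.51 for injury markers, and WT IR 3 and cKO IR 3 (triangles) are high for endothelial markers, at 0.66 and 0.89.

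DNA replication genes were lower in cKO IR. Of 15 tested genes 10 passed the nominal threshold on the lower side, beside 5.25% of all tested genes, and none on the higher side. All 15 had a negative difference, and the median was -0.38. The counts were 11 and 0 without WT IR 2, with a median of -0.44, but without WT IR 3, the library with the highest levels, 5 passed. The MCM genes encode the helicase that opens the double strand at replication origins. Mcm6 read 16.3, 13.9 and 21.7 FPKM in WT IR against 8.19, 11.9 and 12.1 FPKM in cKO IR (-0.64, SE 0.17, limma adjusted p = 0.175). Mcm5 had 14.8, 12.9 and 19.2 FPKM against 8.82, 12.3 and 9.66 FPKM (-0.56). Mcm2 (-0.36), Mcm3 (-0.44), Mcm4 (-0.46) and Mcm7 (-0.33) had groups that did not overlap either, and so did Cdt1 (-0.39), which loads the helicase. Of 16 mitosis genes 4 were abundant enough to test, and 3 of them were lower, including Top2a at 1.49, 1.87 and 3.56 FPKM against 0.646, 1.20 and 1.06 FPKM (-0.71) and the proliferation marker Mki67 (-0.68). Without WT IR 3 or without cKO IR 1 only 1 of the 4 passed.

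E2F factors drive replication genes at the start of S phase. Their element was searched as TTTGGCGC or TTTCCCGC on both strands of the same promoter windows. It was present in 4 of the 15 listed replication genes with a promoter in the table (26.7%) and in 407 of 27025 genes (1.51%). The stretches of 3 MCM genes are shown as above, with the match in capitals, because they hold the element and were lower in cKO IR. No match was found for Mcm2, Mcm3 or Mcm4, which were lower as well. The other gene holding the element, Cdc6, was not abundant enough to test. Of the 12 tested replication genes with a promoter 3 held it.
Mcm5, chr8:75109335-75109392, plus strand: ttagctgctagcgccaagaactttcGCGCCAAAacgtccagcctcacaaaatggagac
Mcm6, chr1:128359720-128359840, minus strand: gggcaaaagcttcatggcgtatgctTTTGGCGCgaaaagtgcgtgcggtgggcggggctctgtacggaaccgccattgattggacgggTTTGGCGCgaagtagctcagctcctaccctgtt
Mcm7, chr5:138172016-138172073, minus strand: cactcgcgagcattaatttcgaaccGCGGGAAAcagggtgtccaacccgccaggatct
Mcm6 held 2 matches, 110 and 47 bases before the start.

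Genes of antigen presentation and part of the interferon-inducible GTPases were lower in cKO IR. Of 17 tested genes of the MHC and antigen presentation 9 were lower and none higher (median -0.58), beside 5.25% of all tested genes lower. The lower count was 8 without WT IR 2 (median -0.65), 6 without WT IR 1 and 5 without cKO IR 1. B2m, the light chain of class I molecules, read 502, 375 and 401 FPKM in WT IR against 259, 283 and 285 FPKM in cKO IR (-0.62, SE 0.18, limma adjusted p = 0.185), and 927, 1055 and 729 FPKM in cKO sham against 372, 282 and 245 FPKM in WT sham. H2-Ab1, a class II chain, had 35.5, 34.2 and 25.2 FPKM against 11.3, 23.6 and 11.7 FPKM (-1.04). H2-Eb1 (-0.999), H2-Aa (-0.90) and Cd74 (-0.98), the class II chaperone, were alike. The cKO IR libraries were below the WT IR libraries for each of these 5 genes. Reads of the closely related H2 genes can be shared between them.

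The interferon-inducible GTPases defend cells against intracellular microbes. Of 14 tested 5 were lower and none higher after IR (median -0.70, and -0.80 without WT IR 2), beside 5.25% and 9.72% of all tested genes. The range of the lower count over single left-out libraries was 2 to 6. Igtp read 17.6, 14.9 and 9.26 FPKM in WT IR against 5.39, 7.73 and 4.77 FPKM in cKO IR (-1.08, SE 0.31, limma adjusted p = 0.183). In the sham kidneys Igtp was at 9.92 to 22.5 FPKM in WT but at 196 to 274 FPKM in cKO. Irgm2 (-0.94), Tgtp1 (-0.98), Iigp1 (-0.92) and Ifi47 (-0.98) were the others past the nominal threshold. Tgtp1 has a near-identical neighbour, so its value is uncertain. In the sham comparison 13 of the 14 were called higher in cKO (median 2.98), beside 0.847% of all tested genes. Of 21 interferon-stimulated antiviral genes 1 was lower after IR, Isg15, a ubiquitin-like protein, at 15.1, 4.72 and 7.57 FPKM against 2.23, 2.11 and 3.59 FPKM (-1.36), beside 5.25% of all tested genes. The lower count was 5 without WT IR 2 and 0 without any other single injured library (medians -0.46 with all libraries and -0.78 without WT IR 2).

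**Figure D4:**
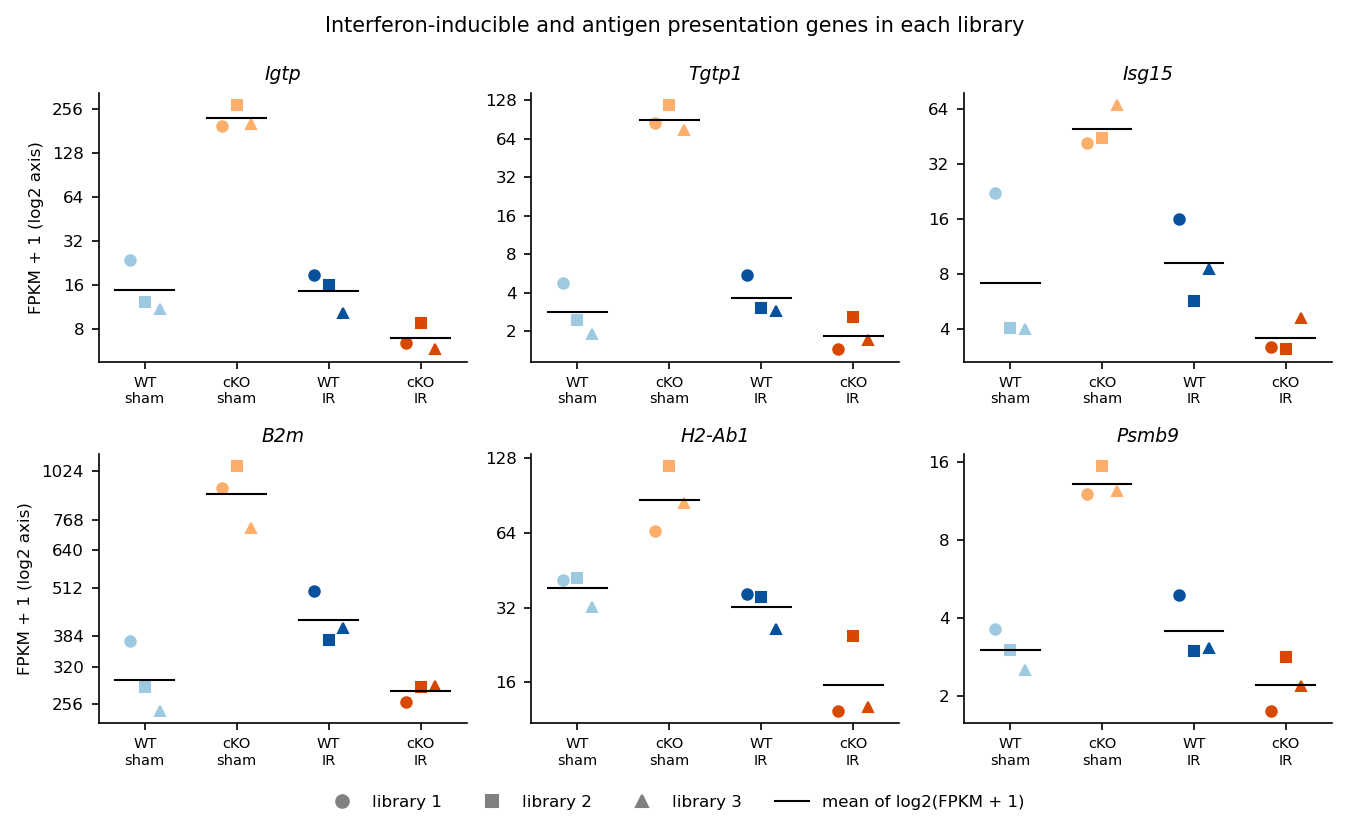
FPKM + 1 (log2 axis) of 6 interferon-inducible or antigen presentation genes in the 12 libraries, by group, with the bar at the mean of log2(FPKM + 1). For each gene all cKO sham libraries lie above all WT sham libraries, and all cKO IR libraries lie below all WT IR libraries.

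The counts of several other lists moved with single libraries. Cholesterol synthesis had 5 lower and no higher genes of 18 (median -0.31), and the lower count became 2 without WT IR 2 or without cKO IR 3, 9 without cKO IR 2 and 11 without WT IR 3. Among 14 circadian clock genes 6 were lower and 1 higher (median -0.44), and 1 was lower without WT IR 2, without cKO IR 1 or without cKO IR 3, 2 without WT IR 1, and 9 without WT IR 3 or without cKO IR 2. That gene without WT IR 2 was Hlf, a clock output factor, at 9.85, 18.4 and 7.73 FPKM against 5.21, 6.87 and 3.87 FPKM (-0.98). Time of collection within the day was not given in the labels. Of 22 glycolysis and hypoxia genes 4 were higher and 2 lower, beside 9.72% and 5.25% of all tested genes. Slc2a1, the glucose carrier GLUT1, had 22.4, 17.7 and 14.3 FPKM in WT IR against 26.3, 32.1 and 37.0 FPKM in cKO IR (0.78), the vasodilator peptide gene Adm was at 0.75, Aldoa at 0.22, and Pfkm and Pdk1 were lower at -0.44 and -0.38. Of 21 cell death genes 5 were higher and none lower (median 0.06, against 0.029 over all tested genes), beside 9.72% and 5.25% of all tested genes. The 5 were Bcl2l1 and Tnfrsf12a, both named above, Tnfrsf1a (0.42), Casp8 (0.31) and Cflar (0.27), which restrains caspase 8. Without WT IR 2 the higher and lower counts were 5 and 1. They were 2 and 2 when libraries were also scaled to the same total of reads. Cytosolic ribosomal proteins were higher in 15 of 23 genes (median 0.22), but in 6 when scaled to the same total of reads, in 6 without WT IR 2 and in 2 without cKO IR 1. Of 17 heat shock genes 1, the factor gene Hsf1 (0.16), was higher and none lower. The higher and lower counts were 2 and 4 without WT IR 1, and 0 and 2 with libraries scaled to the same total of reads. Of 26 respiratory chain and citric acid cycle genes none passed (3 higher without WT IR 2, 3 lower without WT IR 3), and of 13 mitochondrially encoded genes none passed (3 lower without cKO IR 1).

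Markers of other cell types varied within the groups. Of 10 tested endothelial genes none passed the nominal threshold, and their summed level was 59.5 to 198 FPKM in WT IR against 85.1 to 237 FPKM in cKO IR, highest in WT IR 3 and cKO IR 3. Stromal markers summed to 58.3 to 147 FPKM and 66.6 to 199.6 FPKM, with 1 of 7 higher, the renin gene Ren1 (0.78, groups overlapping). Neutrophil markers summed to 10.9 to 53.2 FPKM and 19.0 to 27.3 FPKM, with none of 4 past the threshold. Macrophage markers summed to 46.9 to 115 FPKM and 88.2 to 117 FPKM, with 1 of 9 higher. That gene was Cd14, the endotoxin coreceptor, at 20.4, 10.6 and 14.2 FPKM in WT IR against 35.2, 28.8 and 28.4 FPKM in cKO IR (1.02), whereas the defining marker Adgre1 was at 1.83, 0.733 and 3.22 FPKM against 0.618, 1.10 and 2.08 FPKM. The macrophage median was -0.46 without WT IR 2, with 3 lower. Lymphocyte markers summed to 7.21 to 16.5 FPKM and 6.60 to 12.0 FPKM, with 3 of 14 abundant enough to test and none past the threshold. Of 8 podocyte genes Clic3 was lower (-0.47), and none of 6 red blood cell genes passed. Cfd, a fat cell gene, was listed at 0 in WT IR 1 and all cKO IR libraries and stood at 5.51 and 7.52 FPKM in the other WT IR libraries, beside Hp. The part of these cell types in the differences above was not tested.

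Whether a genotype difference depended on surgery was tested by the interaction, the difference after IR minus that in sham. Limma called 113 genes, 38 higher (0.295%) and 75 lower (0.583%). The count was 41 without WT sham 2, 43 without cKO sham 2, 58 without cKO IR 1, 62 without cKO sham 3, 71 without cKO sham 1 and 73 without WT sham 3. Of the 113, 88 were also called between the sham groups, and 54 passed the nominal threshold after IR. Pdk4 had an interaction of 4.13 (SE 0.46, limma adjusted p = 0.00336), Pdp2 one of -1.12 (SE 0.14, adjusted p = 0.00542), and Maff one of 1.44 (adjusted p = 0.0216). For Igtp it was -5.00 and for B2m -2.21, in both of which the sham difference was the larger. Krt20 was not called (-0.84, limma adjusted p = 0.13), nor were Plin2 (1.52, adjusted p = 0.101) and Havcr1 (0.40, adjusted p = 0.607).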

How the data were processed

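Gene levels were taken from the table of FPKM values that the authors deposited, with 56748 genes, 12 libraries and a gene model length for each gene. HISAT2 2.2.1 and the builds mm8 and mm9 are named per the submitters' processing notes. How reads were counted, on which annotation and with which filter is not given in the sources used here, and the table's coordinates were not used. FPKM multiplied by gene length came out as whole multiples of 1 step per library, which gave the reads. A symbol shared by several genes (77 symbols) was kept with its gene identifier.

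The 12868 genes with a mean FPKM of 1 or more were tested on log2(FPKM + 1) with limma 3.58.1 in R 4.3.3, using 4 group means, a trend in the prior variance, 8 residual and 2.59 prior degrees of freedom, two-sided tests and Benjamini-Hochberg adjustment. The contrasts were cKO IR minus WT IR, with and without WT IR 2, cKO sham minus WT sham, and the interaction. The 45 gene lists are described by counts and medians. In them 1 gene is not reported here and was left out of its list. The members and lists were chosen with earlier results of these data known. Named were Krt20, Prdx2 and the 10 genes with the smallest p in each direction, with and without WT IR 2. Clone-like symbols were passed over, and the groups were not required to be apart. Also named were genes of the lists (more than 5 for some), defining markers, and genes said to be picked after their values were seen. Alternatives changed the pseudocount, the filter, the scaling, the libraries fitted, the prior, the test (limma voom on the recovered reads), a replicate block and each library in turn.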

Additional observations from a re-analysis of the deposited data

Results flagged for a closer look

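For 17 of the 146 genes named, the genotype difference after IR differed from that in sham by the test of the interaction (limma adjusted p under 0.05). Of the 17, 5 were higher and 12 lower, beside 0.295% and 0.583% of all tested genes. Many of the 146 were picked for a small p after IR, which is part of the interaction, so the count is no test of the set. The values below are the difference after IR minus the difference in sham, on the log2(FPKM + 1) scale. Groups of 3 libraries are too small for a search for single outlying libraries.

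Interferon-inducible and antigen presentation genes were the most numerous of the flagged genes. They were higher in cKO than in WT among the sham kidneys and had a negative difference after IR, with an interaction of -5.98 for Tgtp1, -5.18 for Iigp1, -5.00 for Igtp, -4.39 for Irgm2, -3.88 for Ifi47, -2.81 for Psmb9, a subunit of the immunoproteasome, -2.22 for H2-Ab1 and -2.21 for B2m. For Igtp the difference was 3.92 in sham and -1.08 after IR. Of the 2 regulators of pyruvate dehydrogenase, Pdk4 was at 4.13 (-2.21 in sham and 1.92 after IR) and Pdp2 at -1.12 (0.26 in sham and -0.86 after IR).

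Among genes of proliferation Mcm5 was at -1.16 (0.60 in sham and -0.56 after IR) and Rbl1 at -0.77, and the cilium gene Evc was at -0.65. On the higher side were Maff at 1.44, the NRF2 target Nqo1 at 1.23 (-0.64 in sham and 0.59 after IR), Ell at 0.85 and Als2cl at 0.75.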

How the results depend on the processing

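The count of genes called between cKO IR and WT IR, 0, became 1 with a pseudocount of 0.1, with a mean of at least 5 FPKM, with the same total of reads and with limma voom, and 9 without a filter. It ranged from 0 to 12 with 1 library left out (12 without WT IR 1, 4 without cKO IR 2, 2 without WT IR 3 and 1 without cKO IR 1). Without WT IR 2 it was 23 with no filter and 0 to 9 with a further library left out (9 without cKO IR 2 and 7 without WT IR 1). At the unadjusted threshold the 1251 higher genes became 692 with the same totals, 669 with only the IR libraries fitted and 693 with voom (943 to 1347 with 1 library left out). The 675 lower genes became 1134 without a filter, 352 at 5 FPKM, 1073 with the same totals, 408 with only the IR libraries and 1106 with voom (541 to 1069 with 1 library left out). With WT IR 2 left out, the 1002 higher genes became 447, 520 and 420 with the same totals, only the IR libraries and voom (492 to 1485, the lowest without WT IR 3 as well), and the 541 lower genes became 1141 without a filter, 240 at 5 FPKM, 1130 with the same totals, 352 with only the IR libraries and 1245 with voom (386 to 842, the highest without cKO IR 3 as well). The cause was not tested. The interaction count of 113 was 41 to 150 with 1 library left out and 73 with the replicate number as a block. With that replicate block 0 genes were called after IR. The correlations of the deviations of same-numbered libraries were -0.01, 0.15 and 0.40. With so few libraries they cannot show whether same-numbered libraries shared more than a number.

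Krt20 stayed between -1.09 and -0.74 and Prdx2 between 0.055 and 0.18, neither called. Of 2170 values of named genes under 15 alternatives 2129 kept sign and side of the threshold, 20 passed it and 21 changed sign. The latter included Clu, Egf and Slc12a1 without WT IR 2 (-0.38, 0.10 and 0.11, with ranges over left-out libraries of -0.38 to 0.54, -1.40 to 0.10 and -0.96 to 0.11), Pdp1 without cKO IR 3 (-0.047, range -0.047 to 0.26), and Gpx4 at -0.027 with the same totals, -0.0100 with median centring, -0.026 with voom, -0.11 without WT IR 3 and -0.067 without cKO IR 1 (range -0.11 to 0.15). Without WT IR 3 the sign also changed for Slc22a12 (-0.063, range -0.063 to 0.52), Kap (-0.049, range -0.049 to 0.57) and Napsa (-0.26, range -0.26 to 0.74). Mep1a was at 0.43 without WT IR 2 and 0.021 without cKO IR 1 (range -0.40 to 0.43). Slc27a2, at 0.0018, was at -0.051 with the same totals, -0.034 with median centring, -0.049 with voom, -0.11 without WT IR 1, -0.26 without WT IR 3, -0.046 without cKO IR 1 and -0.0052 without cKO IR 2 (range -0.26 to 0.38). Of 337 interaction values under 20 alternatives 276 kept their call and 61 lost it. Of 658 list medians 631 moved by less than the spread between replicates. FPKM near 0 rest on few reads, so low genes carry the widest errors.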

Other observations

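The tested gene with the largest difference was Gm8730, followed by Gm9625, both processed pseudogenes and both picked out after their values were seen. Gm8730 was at 1.91, 2.34 and 3.10 FPKM in WT IR against 3.08, 187 and 199 FPKM in cKO IR (3.97, SE 1.57, limma adjusted p = 0.272). Gm9625 was at 0, 0.284 and 0.634 FPKM against 0.131, 13.3 and 18.1 FPKM (2.40). Both were also high in cKO sham 1, at 98.1 and 7.68 FPKM, while the other sham libraries held 1.30 to 1.94 FPKM of Gm8730. The cKO libraries thus fell into high and low ones whatever the surgery. Reads of such copies can be shared with near-identical genes, so their levels are uncertain.

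Car3, a carbonic anhydrase abundant in fat and muscle, read 2.67, 6.93 and 7.19 FPKM in WT IR against 1.86, 1.42 and 0.452 FPKM in cKO IR (-1.52, limma adjusted p = 0.138). It was also picked out after its values were seen, and it stood at 13.5 to 23.5 FPKM in the sham libraries.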
